A study of Mus musculus with 9 samples.

Results

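Messenger RNA of 41 genes that make the lipids of the skin barrier was compared between touch dome, interfollicular and hair follicle keratinocytes of mouse back skin. The genes were chosen by name for their place in cholesterol, fatty acid and ceramide synthesis, with earlier results of these data known. They comprise 17 enzymes of sterol synthesis, the 2 sterol regulatory element binding proteins Srebf1 and Srebf2, 11 enzymes that make, elongate or desaturate fatty acids, and 11 enzymes of the sphingolipid pathway. All 41 were matched to a row of the deposited table, and all 41 passed the filter on low counts that left 15046 genes of 55357 rows for testing.

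The epidermis keeps water in with sheets of cholesterol, free fatty acids and ceramides that keratinocytes secrete as they differentiate. Cholesterol is built from acetyl-CoA through mevalonate, isoprenoids and squalene. Ceramide is built when serine palmitoyltransferase joins serine to a fatty acid, a ceramide synthase adds a further fatty acid, and a desaturase completes the sphingoid base. The length of that added chain depends on which elongase and which ceramide synthase a cell expresses. Sebaceous glands, which open into the hair follicle, use the same fatty acid enzymes to make sebum.

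The study asked how touch dome keratinocytes, the patches of specialised epidermis that surround Merkel cells, relate to the other keratinocytes of the skin. Every library came from TNC-CREER; tdTomato mice on a C57BL/6 background at postnatal day 60, given tamoxifen at 100 µg per g body weight on days 51 and 52, so all groups shared the transgenes and the drug. Because the Tnc promoter drives the Cre recombinase, the reporter marks cells that used this promoter around the time of injection, whatever their later state. All cells were sorted as EPCAM+ and integrin α6+ after trypsin digestion. Touchdome cells were also SCA1+ and TOMATO+, IFE (interfollicular epidermis) cells were SCA1+ and TOMATO-, and HF (hair follicle) cells were SCA1- and TOMATO-. Each group had 3 libraries, named here by the replicate number of their titles. Whether a group's libraries came from different animals is not stated, and the p-values therefore reflect only the variation among these samples, part of which may be technical.

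The libraries held 9295059 to 28249763 expected counts, so 3 counts corresponded to 0.114 to 0.316 CPM (counts scaled to the library size after normalisation). The genes of the sort were checked against the gates. Tnc measured 200.4 to 288 CPM in the Touchdome libraries, 1.13 to 7.16 in the IFE libraries and 40.6 to 56.9 in the HF libraries, so the 2 TOMATO- groups differed in Tnc, with a log2 fold change of 3.33 ± 0.50 for HF over IFE (edgeR adjusted p = 0.00137). Ly6a, which encodes SCA1, was at 0.422 to 1.90 CPM in HF and at least 104 in the other groups. The basal keratins Krt5 and Krt14 were abundant in all 9 libraries. The Merkel cell markers Atoh1 and Sox2 had 0 counts in all of them. Touchdome replicate 3 stood nearer to HF than the other Touchdome libraries did, with a correlation of log2 CPM to the HF libraries of 0.9126 to 0.923, against 0.8786 to 0.8947 for Touchdome replicates 1 and 2. In bulk RNA, fewer cells of a type and less RNA per cell cannot be told apart.

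None of the 41 genes was called between Touchdome and IFE, whereas 16 were called between Touchdome and HF and 21 between HF and IFE. Called here means an adjusted p under 0.05 in edgeR's quasi-likelihood test, with the Benjamini-Hochberg adjustment over all 15046 genes. Against IFE, 0 genes were higher and 0 lower in Touchdome, where 1.22% of all genes tested were called higher and 0.0798% lower. At such shares, a count of 0 among 41 genes does not set them apart from all genes. An unadjusted edgeR p under 0.05 was found for 3 of the 41 and for 10.7% of all genes. DESeq2 also called 0. Touchdome and IFE libraries deviated together by replicate number, and with the replicate block the fit called 282 of all genes higher and 67 lower in Touchdome, in place of 184 and 12, and still 0 of the 41 (the lowest adjusted p among them, for Cers4, was 0.102). Set against HF, Touchdome had 5 genes higher and 11 lower, beside 11.8% and 12.8% of all genes. Between HF and IFE, 13 were higher and 8 lower in HF, beside 17.1% and 16% of all genes. Together 51.2% of the 41 genes were called between HF and IFE and 39% between Touchdome and HF. Their median log2 fold change was 0.35 for HF over IFE, -0.29 for Touchdome over HF and 0.04 for Touchdome over IFE, where the median of all genes tested was within 0.005 of 0 in each. Without Touchdome replicate 3 the counts were 0 and 0 against IFE and 6 and 10 against HF. These comparisons share libraries and are not independent of each other. The list was also made with earlier results of these data known, so its shares and medians describe it and are no independent test.

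**Figure D1:**
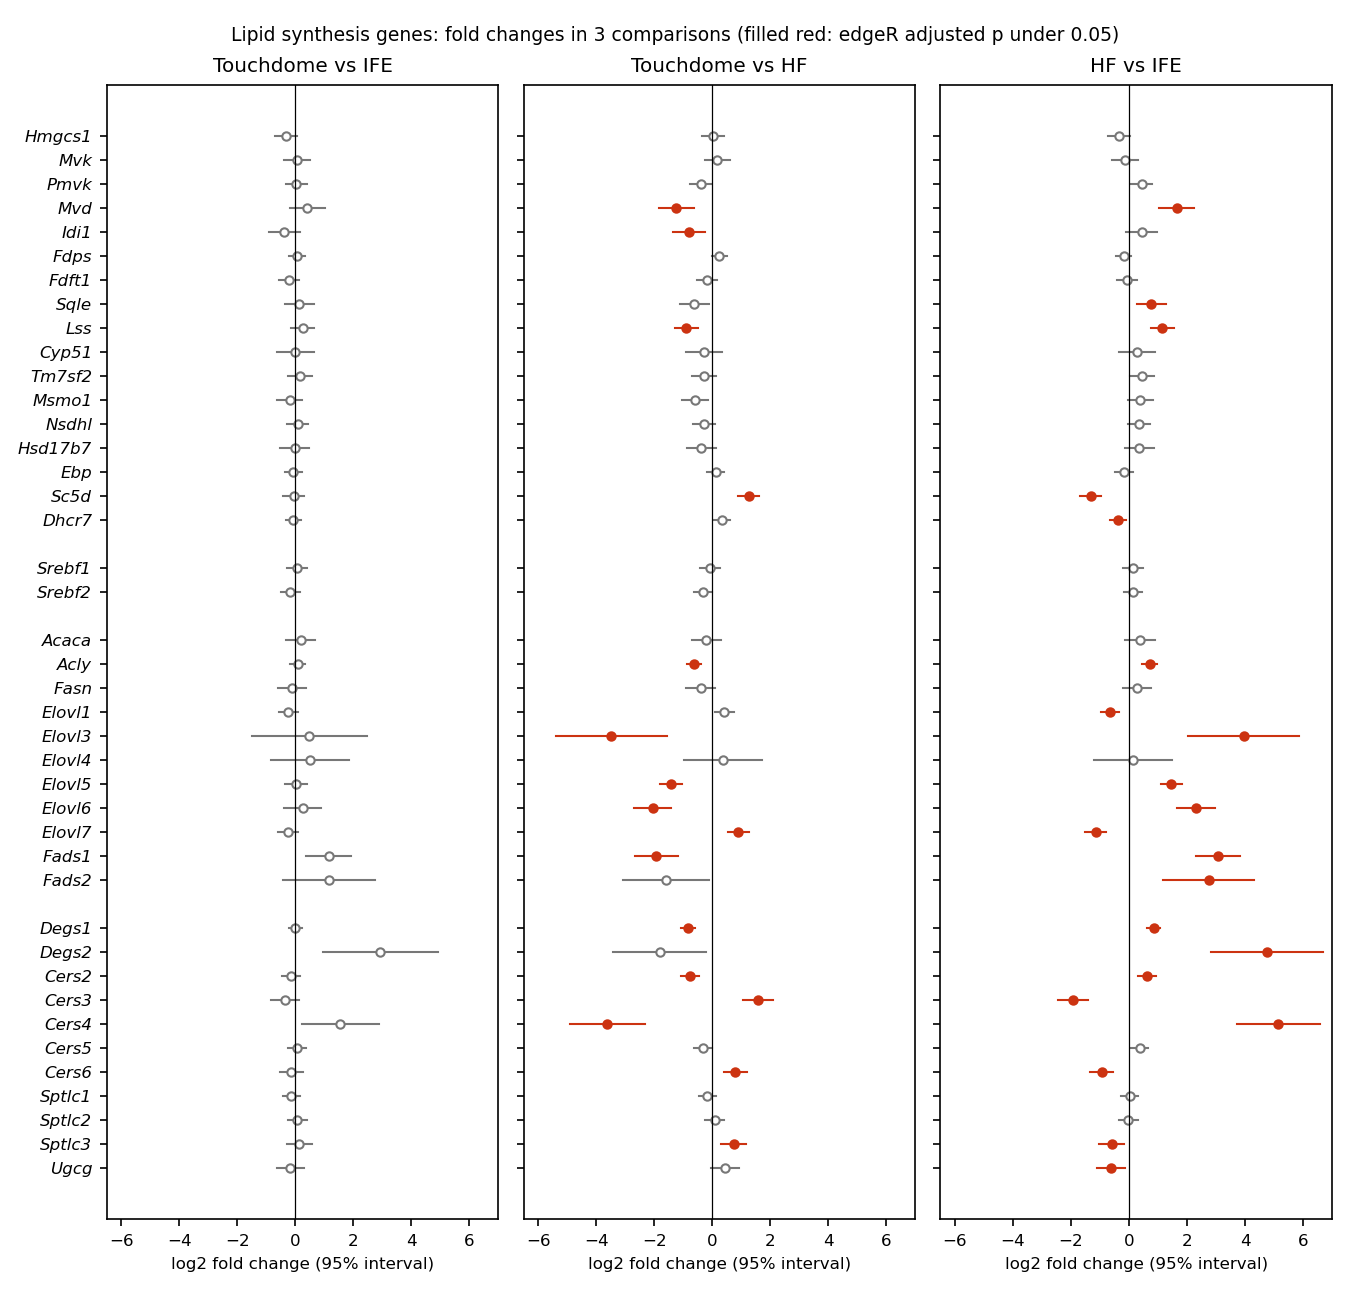
Log2 fold change (x axis, with its 95% interval) of the 41 genes in the 3 comparisons, ordered by branch from sterol synthesis at the top to sphingolipids at the bottom. Filled red points passed the test: 0 of 41 for Touchdome against IFE, 16 for Touchdome against HF and 21 for HF against IFE.

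For Touchdome against IFE, the 95% interval of the log2 fold change lay within ±1, a 2-fold difference, for 34 of 41 genes, including 16 of the 17 sterol enzymes and both regulators. The remaining 7 had intervals that reached past 2-fold. Most calls lay with the fatty acid and sphingolipid genes: 8 of 11 in each branch between HF and IFE, against 5 of 17 sterol enzymes and 0 of 2 regulators. Over all genes tested, 17.1% were called higher and 16% lower in HF, so the sterol share, 29.4%, was near that of all genes.

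In sterol synthesis, HF cells had more mRNA for Mvd, Sqle and Lss than IFE cells, and less for Sc5d and Dhcr7. Mvd makes isopentenyl diphosphate, Sqle oxidises squalene, and Lss closes it into lanosterol, the first sterol. Sc5d and Dhcr7 act near the end of the pathway, where the last double bonds of the sterol ring are placed and removed. Touchdome had more Sc5d and less Mvd, Idi1 and Lss than HF.

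The upstream sequences of 4 sterol enzymes are shown because sterol genes are known targets of Srebf2, which binds sterol regulatory elements beside the CCAAT-binding factor NF-Y, and because the enzymes differed in direction. Hmgcs1 did not pass the test in any comparison of the main fit, Mvd and Lss were higher in HF, and Sc5d was lower. Without IFE replicate 2, Hmgcs1 was called lower in HF than in IFE (log2 fold change -0.54, edgeR adjusted p = 0.00609). Each stretch runs 5′ to 3′ on the strand of the gene over 200 bases, from 230 to 31 bases before the RefSeq start in GRCm38.p6, with capitals marking matches to CCAAT or TCACNCCAC, a core of the sterol regulatory element, on either strand.
Hmgcs1, chr13:119690121-119690320, + strand: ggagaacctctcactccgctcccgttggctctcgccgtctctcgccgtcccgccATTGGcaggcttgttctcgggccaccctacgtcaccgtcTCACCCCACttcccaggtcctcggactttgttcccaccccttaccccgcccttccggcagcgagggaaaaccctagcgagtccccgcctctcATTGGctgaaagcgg
Mvd, chr8:122443453-122443652, - strand: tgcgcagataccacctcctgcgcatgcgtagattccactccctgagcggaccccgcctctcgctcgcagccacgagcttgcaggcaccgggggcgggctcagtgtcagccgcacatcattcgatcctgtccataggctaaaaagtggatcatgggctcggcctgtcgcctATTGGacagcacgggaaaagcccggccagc
Lss, chr10:76531375-76531574, + strand: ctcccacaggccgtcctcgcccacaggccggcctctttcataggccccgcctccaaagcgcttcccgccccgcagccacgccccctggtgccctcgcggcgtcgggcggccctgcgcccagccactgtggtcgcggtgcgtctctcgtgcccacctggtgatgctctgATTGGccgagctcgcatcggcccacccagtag
Sc5d, chr9:42264331-42264530, - strand: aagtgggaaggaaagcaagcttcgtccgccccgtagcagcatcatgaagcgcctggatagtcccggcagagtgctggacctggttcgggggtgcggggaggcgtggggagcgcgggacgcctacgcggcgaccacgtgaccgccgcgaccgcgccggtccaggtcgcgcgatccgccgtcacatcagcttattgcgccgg

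Over the whole RefSeq windows of 300 bases (250 before the start to 50 after), which were given for 36 of the 41 genes, CCAAT was found in all 14 sterol enzymes with a window. It was found in 5 of 9 fatty acid genes, in 4 of 11 sphingolipid genes and in 42.7% of the 10698 tested genes with a window. The GC box GGGCGG was found in 13 of the 14 sterol enzymes and in 67.9% of those tested genes. The core TCACNCCAC was found in Hmgcs1 alone, at position -137, and in 1.44% of the tested genes. The E box CACGTG was found in 8 of the 36 genes and in 11.4% of the tested genes. Both strands were searched, and none of the 4 motifs contains another. Sc5d, which was lower in HF, and Lss, which was higher, each had a CCAAT match in the window. The match of Sc5d, at position -24, lies outside the stretch shown.

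Mvd (ENSMUSG00000006517) was at 8.18, 4.20 and 9.63 CPM in Touchdome replicates 1 to 3, at 6.10, 4.64 and 5.79 in IFE and at 17.0, 19.5 and 15.7 in HF. All HF libraries lay above all others, and Touchdome and IFE overlapped. The fitted log2 fold change was 1.65 ± 0.28 (SE) for HF over IFE (edgeR adjusted p = 0.000522) and -1.24 ± 0.28 for Touchdome over HF (edgeR adjusted p = 0.00523).

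Lss (ENSMUSG00000033105) was at 42.3, 29.3 and 49.7 CPM in Touchdome, 36.1, 28.7 and 37.1 in IFE and 65.7, 77.9 and 83.6 in HF. HF again stood clear of both other groups. In the fit, the log2 fold change was 1.15 ± 0.18 for HF over IFE (edgeR adjusted p = 0.000342) and -0.90 ± 0.18 for Touchdome over HF (edgeR adjusted p = 0.00284).

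Sqle, a rate-limiting step after squalene, was at 44.2, 33.0 and 38.6 CPM in Touchdome, 49.9, 23.6 and 31.4 in IFE and 61.5, 53.7 and 63.1 in HF. HF was higher than IFE by 0.76 ± 0.23 on the log2 scale (edgeR adjusted p = 0.023), a call that was lost without IFE replicate 3 (adjusted p = 0.0845), HF replicate 1 (adjusted p = 0.0691) or HF replicate 3 (adjusted p = 0.0706). Idi1, which isomerises isopentenyl diphosphate, was at 63.6, 34.5 and 57.9 CPM in Touchdome, 73.1, 48.1 and 81.1 in IFE and 81.3, 85.6 and 107 in HF. Touchdome was lower than HF by a log2 fold change of -0.81 ± 0.25 (edgeR adjusted p = 0.0352), and this call was lost in 9 of 18 alternative settings, with adjusted p from 0.0518 to 0.121. Idi1 is among 8 genes with fractional expected counts, whose reads the counting shared in part with other genes and whose values are uncertain for that reason; the others are Hmgcs1, Fdft1, Tm7sf2, Fdps, Acaca, Cers4 and Degs2.

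Sc5d (ENSMUSG00000032018) ran the other way. It was at 66.2, 58.3 and 48.8 CPM in Touchdome, 70.9, 50.4 and 59.3 in IFE and 24.6, 20.2 and 27.3 in HF, with no overlap between HF and the other groups. The log2 fold change was -1.32 ± 0.17 for HF over IFE (edgeR adjusted p = 5.83e-05) and 1.26 ± 0.17 for Touchdome over HF (edgeR adjusted p = 0.00014). Dhcr7, the last enzyme of the pathway, was at 57.9, 61.1 and 60.8 CPM in IFE and 40.3, 44.2 and 52.5 in HF, and Touchdome lay at 63.1, 56.2 and 52.6. HF was lower than IFE by a log2 fold change of -0.39 ± 0.13 (edgeR adjusted p = 0.0295). This call for Dhcr7 was lost in 7 of 18 alternative settings: without IFE replicate 2 (adjusted p = 0.0501), IFE replicate 3 (0.0787), HF replicate 1 (0.131) or HF replicate 2 (0.0884), and in the 3 limma fits on TPM (adjusted p 0.693 to 0.698).

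The other 11 sterol enzymes did not pass the test in any comparison of the main fit. Of these, Msmo1 was lower in Touchdome than in HF with an edgeR adjusted p of 0.0526. It was called in 8 of 18 alternative settings, DESeq2 among them. Pmvk was called higher in HF than in IFE in 6 of 18. Hmgcs1, which makes the precursor of mevalonate, had the highest level of the branch per unit length in every group: 167 TPM in Touchdome, 187 in IFE and 169 in HF, as group means (TPM is the deposited length-scaled abundance). It was followed by Fdps, the farnesyl diphosphate synthase, at 97.1, 84.0 and 86.9 TPM. The regulators Srebf1 and Srebf2 differed little between HF and IFE: their log2 fold change for HF over IFE was 0.15 ± 0.16 and 0.14 ± 0.15, with edgeR adjusted p of 0.522 and 0.506. Their intervals for this contrast reached at most 0.49. For Touchdome over HF, the log2 fold change of Srebf2 was -0.31 ± 0.15 (edgeR adjusted p = 0.156). That gene was called without IFE replicate 2 (edgeR adjusted p = 0.0482). The mRNA of these factors does not measure the cleaved, active protein.

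The whole sterol branch summed to 754, 628 and 740.1 TPM in Touchdome, 789, 529 and 701 in IFE and 749.6, 806 and 800.1 in HF. These sums overlapped between all 3 groups. Replicate 2 was the lowest Touchdome library for 15 of 17 sterol enzymes. In IFE, replicate 2 was the lowest library for 11 of 17 and the highest for 5 of 17. The same libraries had the lowest summed TPM of 6 immediate early genes, which respond to tissue dissociation: 7233 in Touchdome replicate 2 against 11190 and 16130 in the others, and 10020 in IFE replicate 2 against 18790 and 20730. Its part in the sterol values was not tested. In HF, the immediate early sum was 16810 to 18190, and replicate 1 was the lowest library for 9 of 17 enzymes.

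**Figure D2:**
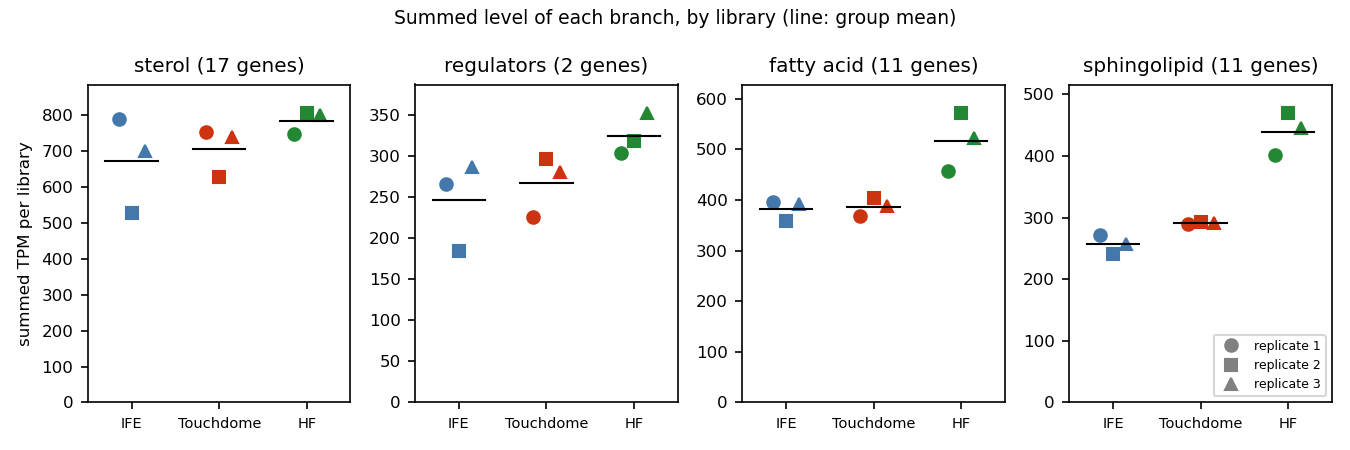
Summed TPM of each branch in every library (points; the shape gives the replicate) with the group mean (line); each y axis starts at 0. HF libraries lie above all others for fatty acid genes (458 to 571 TPM) and sphingolipid genes (401 to 469 TPM), while the sterol sums overlap.

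In fatty acid synthesis, HF cells had more mRNA for Acly, Elovl3, Elovl5, Elovl6, Fads1 and Fads2 than IFE cells, and less for Elovl1 and Elovl7. Acly supplies acetyl-CoA from citrate. Elovl6 extends palmitate to stearate, Elovl5 extends polyunsaturated chains, and Fads1 and Fads2 are the front-end desaturases that make these. Elovl1 and Elovl7 lengthen saturated chains to very long ones. Fasn and Acaca, the central synthase and the enzyme that makes its malonyl-CoA, did not pass the test.

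Elovl6 (ENSMUSG00000041220) was at 43.2, 44.0 and 71.2 CPM in Touchdome, 38.0, 48.2 and 46.8 in IFE and 134, 266 and 259 in HF. HF replicate 1 was the lowest HF library yet lay well above every Touchdome and IFE library. The fitted log2 fold change was 2.31 ± 0.29 for HF over IFE (edgeR adjusted p = 0.000244) and -2.06 ± 0.29 for Touchdome over HF (edgeR adjusted p = 0.000707).

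Elovl5 (ENSMUSG00000032349) was at 21.1, 28.4 and 26.5 CPM in Touchdome, 25.8, 23.0 and 25.5 in IFE and 52.3, 80.1 and 72.1 in HF. Touchdome and IFE were nearly level, with a log2 fold change of 0.03 between them (95% interval -0.34 to 0.40). HF was higher than IFE by 1.46 ± 0.17 (edgeR adjusted p = 2.98e-05), and Touchdome over HF was -1.43 ± 0.17 (edgeR adjusted p = 5.91e-05).

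Fads1 (ENSMUSG00000010663) was at 3.45, 2.32 and 5.48 CPM in Touchdome, 1.74, 2.25 and 1.17 in IFE and 13.6, 14.96 and 14.2 in HF. All Touchdome libraries lay between those of IFE and HF. In the fit, the log2 fold change was 3.07 ± 0.35 for HF over IFE (edgeR adjusted p = 2.76e-05) and -1.92 ± 0.34 for Touchdome over HF (edgeR adjusted p = 0.00104). For Touchdome over IFE it was 1.15 ± 0.35, which did not pass the adjustment (edgeR adjusted p = 0.188). Fads2 was scarce in every group, with 1.69 to 3.21 CPM in HF, 0.358 to 0.996 in Touchdome and 0.105 to 0.492 in IFE, and its call for HF over IFE (edgeR adjusted p = 0.0104) was lost without HF replicate 3 (adjusted p = 0.0561).

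Acly was at 152, 150.3 and 153 CPM in Touchdome, 160.4, 124 and 145 in IFE and 221, 251 and 230.2 in HF. The Touchdome libraries were close together and inside the range of IFE. HF was higher than IFE by 0.71 ± 0.12 on the log2 scale (edgeR adjusted p = 0.000427), and Touchdome over HF was -0.63 ± 0.12 (edgeR adjusted p = 0.00154). Elovl3, an elongase known from sebaceous glands and brown fat, was at 5.67, 10.01 and 10.03 CPM in HF and at most 1.17 in the other groups. Its log2 fold change for HF over IFE was 3.96 ± 0.86 (edgeR adjusted p = 0.00474) and for Touchdome over HF -3.48 ± 0.87 (edgeR adjusted p = 0.0133).

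Elovl7 (ENSMUSG00000021696) had the opposite pattern, at 38.2, 44.1 and 43.5 CPM in Touchdome, 48.2, 49.6 and 51.2 in IFE and 20.1, 29.3 and 18.2 in HF. The 3 groups did not overlap, with IFE highest and HF lowest. The log2 fold change was -1.15 ± 0.17 for HF over IFE (edgeR adjusted p = 0.00016) and 0.91 ± 0.17 for Touchdome over HF (edgeR adjusted p = 0.00144); Touchdome over IFE was -0.25 ± 0.16 (edgeR adjusted p = 0.689). Elovl1 was at 76.6 to 108 CPM in IFE, 67.5 to 83.2 in Touchdome and 49.4 to 61.9 in HF, and its log2 fold change for HF over IFE was -0.66 ± 0.15 (edgeR adjusted p = 0.00389). Per unit length, Elovl1 was the most abundant gene of the branch in IFE and Touchdome (125 and 116 TPM), and Acly led in HF (117 TPM).

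Elovl4, which makes the ultra-long chains of acylceramides, varied most within HF, at 19.1, 92.7 and 34.2 CPM. Elovl4 was at 59.3, 87.4 and 39.9 CPM in Touchdome and 42.2, 53.7 and 36.1 in IFE. Its interval for HF over IFE ran from -1.21 to 1.47, so a 2-fold difference either way was not excluded.

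**Figure D3:**
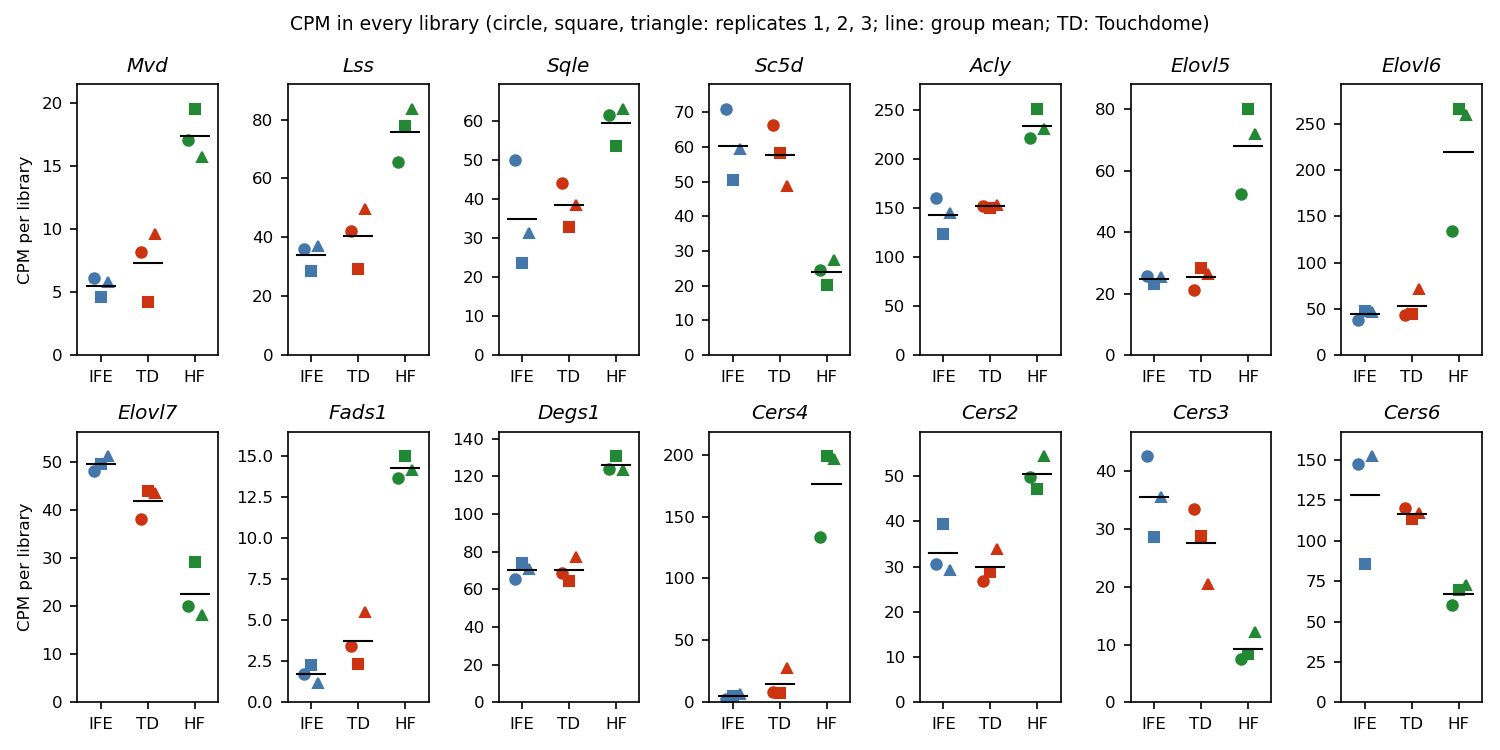
CPM of 14 genes in every library (points; circle, square and triangle for replicates 1, 2 and 3) with group means (lines), for IFE, Touchdome (TD) and HF; each y axis starts at 0. Cers4 lies at 133.5 to 199 CPM in HF and at most 27.7 elsewhere, while Cers3 and Sc5d are lowest in HF.

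In the sphingolipid branch the ceramide synthases, which choose the length of the added chain, parted in direction. HF cells had more Cers4 and Cers2 than IFE cells and less Cers3 and Cers6. Cers5 did not pass the test (edgeR adjusted p = 0.0541 for HF over IFE). It was called higher in HF than in IFE in 6 of 18 alternative settings, DESeq2 among them. Cers3 uses ultra-long chains and is required for the epidermal barrier. Cers2 and Cers4 use long to very long chains, and Cers5 and Cers6 favour shorter ones. The desaturases Degs1 and Degs2 were also higher in HF, and the serine palmitoyltransferase subunit Sptlc3 and the glucosylceramide synthase Ugcg were lower.

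Cers4 (ENSMUSG00000008206) had the largest fold change of the 41 genes between HF and IFE. It was at 8.12, 7.60 and 27.7 CPM in Touchdome, 2.89, 5.28 and 6.51 in IFE and 133.5, 199 and 197 in HF. The 3 groups did not overlap, and Touchdome replicate 3 lay above its group. The fitted log2 fold change was 5.16 ± 0.61 for HF over IFE (edgeR adjusted p = 0.000442) and -3.61 ± 0.56 for Touchdome over HF (edgeR adjusted p = 0.00262), and for Touchdome over IFE it was 1.55 ± 0.57 without passing the test (edgeR adjusted p = 0.376). Without Touchdome replicate 3, the value for Cers4 was 0.67 for Touchdome over IFE (edgeR adjusted p = 0.701) and -4.48 for Touchdome over HF (edgeR adjusted p = 5.45e-06). Cers4 took 22.5% of the summed TPM of the branch in HF, 3.21% in Touchdome and 1.27% in IFE. Some of its reads were shared with other genes in 5 of 9 libraries.

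Cers3 (ENSMUSG00000030510) was at 33.4, 28.8 and 20.5 CPM in Touchdome, 42.6, 28.6 and 35.6 in IFE and 7.45, 8.33 and 12.2 in HF. Here HF was lowest without overlap, and Touchdome replicate 3 was the lowest Touchdome library. In the fit, the log2 fold change was -1.93 ± 0.24 for HF over IFE (edgeR adjusted p = 4.79e-05) and 1.57 ± 0.24 for Touchdome over HF (edgeR adjusted p = 0.000392).

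Cers6 (ENSMUSG00000027035) was at 120.1, 113 and 117 CPM in Touchdome, 147, 85.6 and 152 in IFE and 60.0, 69.3 and 72.5 in HF. HF was lower than both other groups. The log2 fold change was -0.93 ± 0.18 for HF over IFE (edgeR adjusted p = 0.00182) and 0.80 ± 0.18 for Touchdome over HF (edgeR adjusted p = 0.00698), and both calls were lost in the limma fits on TPM (adjusted p 0.119 to 0.123 and 0.0684 to 0.0714). Cers2 (ENSMUSG00000015714) was at 26.9, 28.7 and 33.8 CPM in Touchdome, 30.5, 39.3 and 29.3 in IFE and 49.8, 47.1 and 54.3 in HF. It was higher in HF than in IFE by 0.61 ± 0.15 (edgeR adjusted p = 0.00585), and Touchdome over HF was -0.76 ± 0.15 (edgeR adjusted p = 0.0021).

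Degs1, which converts dihydroceramide to ceramide, was at 68.9, 64.6 and 77.1 CPM in Touchdome, 65.4, 74.1 and 70.6 in IFE and 124, 131 and 123 in HF. The 3 HF libraries were close together and clear of the rest. The fitted log2 fold change was 0.85 ± 0.11 for HF over IFE (edgeR adjusted p = 6.13e-05) and -0.84 ± 0.11 for Touchdome over HF (edgeR adjusted p = 0.000107). Degs2, which makes phytoceramides, was scarce: 0.448, 0.447 and 0.830 CPM in Touchdome, 0, 0.141 and 0.0757 in IFE and 1.55, 2.42 and 2.16 in HF. Its fold change for HF over IFE (4.75 ± 0.89 on the log2 scale, edgeR adjusted p = 0.00115) rested on 4 counts in IFE in all. For Touchdome over IFE the value was 2.93 ± 0.91 (edgeR adjusted p = 0.194).

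Sptlc3 was at 34.5, 48.2 and 28.3 CPM in Touchdome, 30.3, 39.3 and 31.2 in IFE and 21.0, 26.8 and 18.9 in HF. HF was lowest without overlap. In the fit, the log2 fold change was -0.60 ± 0.20 for HF over IFE (edgeR adjusted p = 0.0355) and 0.74 ± 0.20 for Touchdome over HF (edgeR adjusted p = 0.0171). The first call was lost in 7 and the second in 6 of 18 alternative settings, the limma fits on TPM among both. Ugcg, at 13.1 to 17.7 CPM in IFE and 7.48 to 11.7 in HF, was lower in HF by a log2 fold change of -0.62 ± 0.22 (edgeR adjusted p = 0.0454), and this call was lost in 12 of 18 settings. Sptlc1 and Sptlc2, the shared subunit and the main catalytic subunit of serine palmitoyltransferase, differed by at most 0.17 on the log2 scale in any comparison.

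In the limma fit on log2(TPM + 1), the median log2 fold change of all genes for HF over IFE lay 0.185 above that of edgeR. The limma fits on TPM called 4 genes lower in HF than in IFE in place of 8, losing Dhcr7, Cers6, Sptlc3 and Ugcg. Leaving out HF replicate 1 left 5. Over all genes, 71.2% of the calls of the fit on log2(TPM + 1) were higher in HF, against 2571 higher and 2401 lower calls in edgeR.

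**Figure D4:**
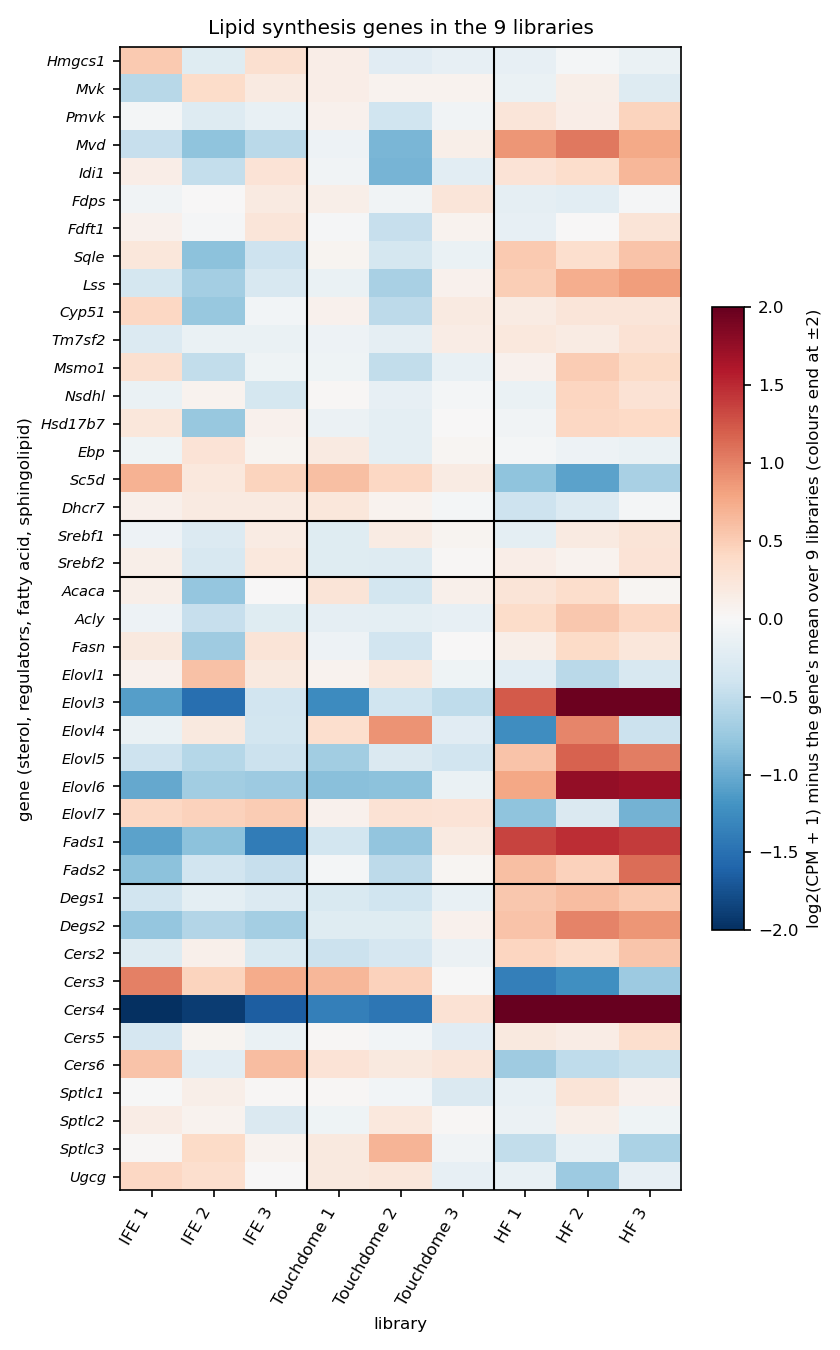
Level of each of the 41 genes in each library, as log2(CPM + 1) minus the mean of the gene over 9 libraries (red above, blue below, colours end at ±2), with lines between groups and between branches. The HF columns are red for Elovl3, Elovl5, Elovl6, Fads1, Degs1, Cers2 and Cers4 and blue for Sc5d, Elovl7, Cers3 and Cers6, and Touchdome replicate 3 is nearest to HF for Cers4.

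Genes around the core pathways differed in the same comparisons. Their 4 lists, too, were chosen with earlier results of these data known. None in the 4 lists passed the test between Touchdome and IFE, where 1.22% of all genes were called higher and 0.0798% lower. At such shares, the absence of calls does not set these lists apart from all genes. The lowest edgeR adjusted p among them was 0.06, in the list of lipid storage and sebum. The counts below stand beside 17.1% higher and 16% lower of all genes for HF against IFE, and 11.8% higher and 12.8% lower for Touchdome against HF. Among 15 genes of sterol control and transport, 5 were higher and 3 lower in HF than in IFE, while Touchdome had 2 higher and 6 lower against HF. Soat1, which esterifies cholesterol for storage, was at 24.7, 43.9 and 43.9 CPM in HF and at 1.05 to 5.81 in the other libraries. Abcg1, a cholesterol exporter, was at 13.8, 14.5 and 6.16 CPM in HF against 79.1 to 85.2 in IFE and 58.5 to 80.5 in Touchdome. Mylip, which marks lipoprotein receptors for degradation, was also lower in HF, with a log2 fold change of -1.18 ± 0.14 against IFE (edgeR adjusted p = 4.49e-05).

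Among 19 further fatty acid genes that could be tested, of 20 listed, 12 were higher and 1 was lower in HF than in IFE, while Touchdome had 1 higher and 9 lower against HF. Acss2, which makes acetyl-CoA from acetate, was at 26.1, 35.3 and 40.2 CPM in HF and 7.24 to 10.96 in the other libraries. Slc25a1, the citrate carrier that feeds Acly, was higher in HF than in IFE by a log2 fold change of 0.80 ± 0.13 (edgeR adjusted p = 0.000315). The exception was Acsl1, a fatty acyl-CoA synthetase, at 43.9 to 58.0 CPM in HF against 129 to 149 in IFE and 139.9 to 161 in Touchdome.

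Among 26 tested genes of acylceramide synthesis and ceramide turnover, of 27 listed, 3 were higher and 10 lower in HF than in IFE, while Touchdome had 10 higher and 2 lower against HF. Abca12, which loads lipid into the secretory granules of the barrier, was at 82.8, 78.4 and 76.8 CPM in Touchdome, 60.8, 39.7 and 52.5 in IFE and 31.8, 38.0 and 26.9 in HF. Nipal4 and Abhd5, which also serve acylceramide formation, were lower in HF than in IFE by log2 fold changes of -1.23 ± 0.18 and -0.74 ± 0.12 (edgeR adjusted p = 0.0002 and 0.000327). Cerk, which phosphorylates ceramide, had a log2 fold change of -1.45 ± 0.18 (edgeR adjusted p = 4.46e-05). The suprabasal keratins Krt1 and Krt10, markers of the differentiating layers that make barrier lipid, were lower in HF than in IFE in the same libraries, and the summed TPM of 8 suprabasal markers was 2787 to 2976 in HF libraries, 3476 to 5003 in IFE libraries and 6360 to 8527 in Touchdome libraries. Of the 8, however, 3 were higher and 3 lower in HF than in IFE. The part of differentiating cells in these values was not tested.

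Among 12 tested genes of lipid storage and sebum, of 15 listed, 9 were higher and 0 lower in HF than in IFE, while Touchdome had 0 higher and 6 lower against HF. Plin2, which coats lipid droplets, was at 107, 189.9 and 189 CPM in HF and 18.4 to 38.7 elsewhere. Far2, which makes the fatty alcohols of wax esters, was at 38.4, 87.8 and 54.5 CPM in HF and 4.09 to 9.88 elsewhere.

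Markers of sebocytes and sebaceous ducts were higher in the same HF libraries. Of 7 tested markers, 6 were higher in HF than in IFE, and the summed TPM of the 8 listed was 1158 to 2240 in HF, 354 to 944 across Touchdome libraries and 159.5 to 219 across IFE libraries. Among the 8 listed, Pparg, Mc5r and Cidea were at or below 1.33 CPM in every Touchdome and IFE library. All 7 tested markers had log2 fold changes above 0 for Touchdome over IFE (0.03 to 1.53), and 0 of them were called. Within HF the order of the libraries differed between measures: the marker sum was 1707, 2240 and 1158 TPM in replicates 1 to 3, and Pparg was at 6.22, 25.3 and 15.2 CPM. Replicate 1 was the lowest HF library for 7 of 11 fatty acid and 6 of 11 sphingolipid genes, and was the middle one for the marker sum. The highest Touchdome sum, 944 TPM, was that of replicate 3. This library was the highest of its group for 5 of 11 fatty acid genes, as was replicate 2, which had the lowest sum (354 TPM). Replicate 3 was also highest for 4 of 11 sphingolipid genes, as was replicate 1. The part of sebaceous cells in these results was not tested. The adipocyte marker Plin1 had 0 counts in all libraries, and the 6 adipocyte markers summed to at most 1.85 TPM. Fibroblast markers summed to 20.4 to 42.5 TPM in Touchdome and HF and at most 1.61 in IFE. The 4 immune markers summed to 110.7 to 213 TPM in IFE and 138.7 to 311.6 in Touchdome. In HF replicates 1 to 3 they summed to 434.6, 393.4 and 66.93 TPM. Of these 4 markers, 1 was called lower in HF than in IFE and 1 higher in Touchdome than in HF. The part of immune cells in the lipid gene values was not tested.

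**Figure D5:**
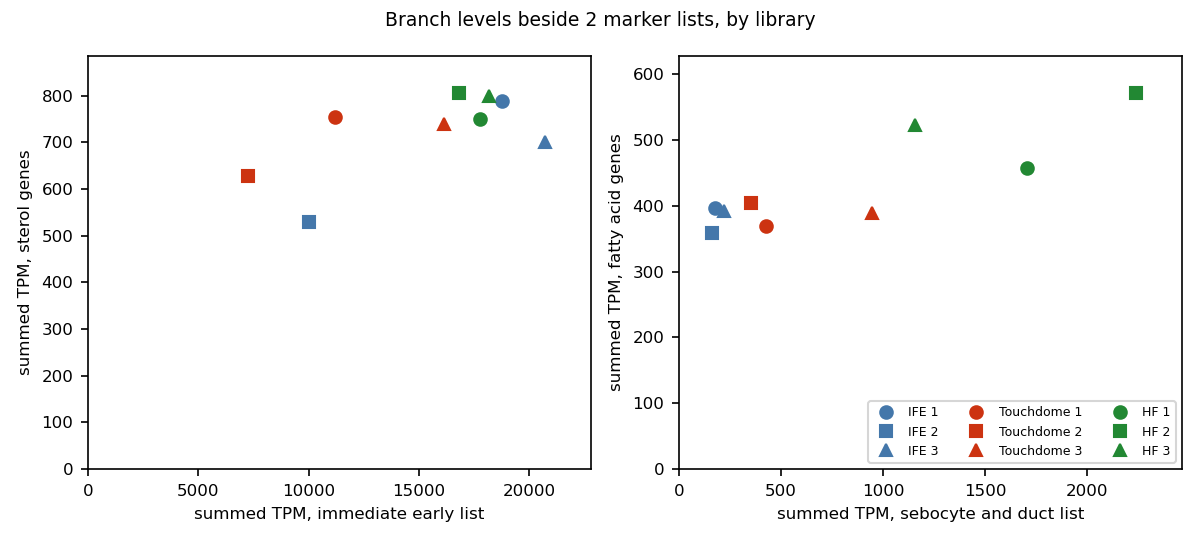
Left, summed TPM of the 17 sterol genes against that of 6 immediate early genes in each library; right, summed TPM of the 11 fatty acid genes against that of 8 sebocyte and duct markers (colour gives the group, shape the replicate). Touchdome replicate 2 and IFE replicate 2 are lowest on both axes of the left plot within their groups, and the 3 HF libraries are highest on both axes of the right plot.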

How the data were processed

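RNA-seq libraries of 9 sorted samples were analysed. The submitters' processing notes name the tools RSEM 1.3.3, STAR 2.7.9a and DESeq2 1.38.2 and the genome build mm39, without a role for each. Strand setting and annotation release: not given in the sources used here, so antisense and overlapping genes are uncertain. Expected counts, as deposited by the authors, are unscaled estimates per gene; the TPM values deposited by the authors are scaled by length and carry no depth. Of the 41 genes, 8 had fractional expected counts. Expected counts were rounded, filtered with filterByExpr (minimum count 10, total 15), scaled by TMM and tested with edgeR 4.0.16's robust quasi-likelihood test (R 4.3.3), with all 9 libraries in 1 fit, Benjamini-Hochberg adjustment over 15046 genes and a threshold of 0.05. The script was tested on simulated data. Rows without a symbol held 0.673% to 2.13% of counts. Symbols came from the GENCODE table supplied and promoter windows from RefSeq for GRCm38.p6, which is not the files' build.

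The genes and lists were chosen with earlier results of these data known. Genes called in any comparison, up to 5 per branch and comparison by smallest p, are described in full; other lists name up to 4 called genes per comparison. Alternatives were DESeq2 1.42.0, limma 3.58.1 on log2(TPM + 1) or log2(TPM + 0.1), other scaling, no filter, fits of 2 groups, the replicate block and leaving out each library. Pairing by replicate number was checked on the deviations of libraries from their group means. Same-numbered Touchdome and IFE libraries correlated at 0.146, 0.173 and 0.203, all over the limit of 0.1, and other-numbered ones at -0.041 to -0.128. Deviations from a group mean cancel out within the group, so positive same-numbered values make the others negative on balance. The negative values are therefore no separate support for pairing. This pairing comes from the data, not from the labels, and the fit without the block stayed the main one.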

Additional observations from a re-analysis of the deposited data

How the results depend on the processing

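Of the calls among the 41 genes, 13 of 16 between Touchdome and HF and 15 of 21 between HF and IFE held in all 18 alternatives. No called gene changed direction, and no gene was called between Touchdome and IFE in any alternative that tested it. The fit of only Touchdome and IFE tested 39 of the 41, without Fads2 and Degs2. Among genes not called in the main fit, 8 of 25 between Touchdome and HF and 6 of 20 between HF and IFE were called in some alternative. Leaving out each library in turn gave 11 to 14 genes higher and 5 to 8 lower in HF than in IFE, 4 to 6 higher and 10 to 15 lower for Touchdome against HF, and 0 to 0 either way between Touchdome and IFE; the count of 5 lower in HF came without HF replicate 1. The limma fits on TPM, with either pseudocount or with a filter on low TPM, gave 3 genes higher in Touchdome than in HF in place of 5 and 4 lower in HF than in IFE in place of 8; in the fit on log2(TPM + 1), the median log2 fold change of all genes differed from that of edgeR by 0.128 for Touchdome over IFE, -0.0569 for Touchdome over HF and 0.185 for HF over IFE, with scaling, pseudocount and estimator changed together. The replicate numbers paired Touchdome with IFE libraries but not either with HF, where the deviations of same-numbered libraries correlated at -0.026 to 0.070; 8 of 9 libraries correlated best with one of their own number. With the replicate block, Touchdome had 5 genes higher and 13 lower against HF, with 15 higher and 8 lower in HF than in IFE, and 0 either way between Touchdome and IFE; it changed no call between Touchdome and IFE among the 41 genes. Summed levels depended on the measure. The log2 ratio of sphingolipid sums was 0.183 for Touchdome over IFE by TPM and -0.0437 by CPM; for Touchdome over HF it was -0.593 by TPM, -0.475 by CPM and 0.043 by the median of log2(TPM + 1); for HF over IFE it was 0.775, 0.432 and 0.196. The fatty acid ratio by the median was 0.128, -0.762 and 0.89 for Touchdome over IFE, Touchdome over HF and HF over IFE, against 0.0191, -0.418 and 0.437 by summed TPM. The regulator ratio for HF over IFE was 0.143 by CPM and 0.402 by TPM. The cause of these differences was not tested. Depth limits Degs2, whose IFE values all lie below the 0.114 to 0.211 CPM that 3 counts give in these libraries.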
